A study of Homo sapiens with 12 samples.

Results

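The genes of the ADAM, ADAMTS, ADAMTS-like, matrix metalloproteinase (MMP) and tissue inhibitor of metalloproteinases (TIMP) families were followed in SK-MEL-5 and MALME-3M, established human melanoma cell lines, with and without interferon-γ (IFN-γ). The members were taken by gene symbol alone. They numbered 67 of the 44700 genes in the tables, with 20 ADAM, 18 ADAMTS, 5 ADAMTSL, 20 MMP and 4 TIMP genes. The 4 groups were SK-MEL-5 given IFN-γ at 150 ng/mL for 24 h, untreated SK-MEL-5, MALME-3M given IFN-γ at 200 ng/mL for 24 h, and untreated MALME-3M. Each group had 3 libraries of total RNA, all labelled WT for genotype. The wells of a line were plated in triplicate and IFN-γ was added at plating. Nothing says that the wells were separate cultures, so p-values reflect only how these libraries scattered, possibly for technical reasons. SK-MEL-5 grew in Eagle's minimum essential medium and MALME-3M in Iscove's medium with a larger share of serum, so that line and medium cannot be told apart in any comparison between the lines, nor can dose where IFN-γ was given.

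ADAM proteases sit in the cell membrane and cut the outer part off other membrane proteins, a step called shedding. ADAMTS proteases are secreted and cut proteoglycans, procollagens and other matrix proteins, while the ADAMTS-like proteins share their accessory domains and have no protease domain. MMPs cut collagens and other matrix components and are made as inactive precursors, some secreted and some held at the membrane. TIMPs bind the active site of these proteases and block it, and in melanoma the balance of proteases and TIMPs is known for its part in invasion.

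Gene counts totalled 15514412 to 22921184 per library. Levels are given as CPM, counts per 1e+06 counted reads with library sizes scaled by TMM, and between genes as CPM per kilobase of exon. All 7 interferon target genes chosen as a treatment check rose in both lines, and IRF1, an interferon-induced transcription factor, averaged 204 ± 2.07 CPM in IFN-γ-treated SK-MEL-5 and 5.04 ± 0.766 CPM in untreated SK-MEL-5 (SD, n = 3 each). All 7 melanocyte markers were detected in each group, with a sum of 5612 to 5745 CPM in IFN-γ-treated SK-MEL-5 libraries, 5921 to 6249 CPM in untreated SK-MEL-5, 5052 to 5482 CPM in IFN-γ-treated MALME-3M and 5635 to 5648 CPM in untreated MALME-3M. TYRP1, a pigment enzyme, was low in MALME-3M, at 5.801 CPM in IFN-γ-treated MALME-3M and 6.87 CPM in untreated MALME-3M, against 473 CPM in IFN-γ-treated SK-MEL-5 and 516 CPM in untreated SK-MEL-5. The 8 fibroblast markers summed to 131 to 136 CPM in IFN-γ-treated SK-MEL-5 libraries, 162 to 189 CPM in untreated SK-MEL-5, 11.7 to 14.2 CPM in IFN-γ-treated MALME-3M and 17.99 to 18.5 CPM in untreated MALME-3M, with LUM supplying most of the sum in SK-MEL-5. The 7 immune markers summed to 19.8 to 25.8 CPM in IFN-γ-treated SK-MEL-5 libraries, 18.6 to 24.3 CPM in untreated SK-MEL-5, 111 to 122 CPM in IFN-γ-treated MALME-3M and 211 to 216 CPM in untreated MALME-3M. Of these, only CD68 averaged above 1 CPM, at 116 ± 5.52 CPM in IFN-γ-treated MALME-3M and 213 ± 2.64 CPM in untreated MALME-3M, and PTPRC had no count in MALME-3M. The 6 endothelial and epithelial markers each averaged under 1 CPM, and summed to at most 2.04 CPM in a library. The part of the moving markers in the results was not tested.

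The family was present in a minority of strongly expressed genes and many that were near 0. A count in at least 1 library was found for 63 of the 67 members, and 37 had enough counts to be tested: 11 ADAM, 11 ADAMTS, 3 ADAMTSL, 9 MMP and 3 TIMP genes. Averaged over the 12 libraries, 5 members reached 100 CPM, 12 lay between 10 and 100, 14 between 1 and 10, and 36 under 1. ADAM2, MMP10, MMP20 and TIMP4 had no count anywhere, which allows up to 0.0572 CPM over a group at 3 counts. Of the best known MMPs, the gelatinase MMP9 had 2 counts in all, both in untreated SK-MEL-5, and the collagenase MMP13 had 1. The stromelysin MMP3 and the matrilysin MMP7 each had 1 count in every group except untreated MALME-3M, where they had 0. The other untested members had at most 23 counts over a group.

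Per kilobase of exon, MMP14 was the highest member in MALME-3M and a TIMP gene was highest in SK-MEL-5. MMP14, a membrane-anchored collagenase that also activates pro-MMP2, had 186 ± 2.59 CPM per kilobase in IFN-γ-treated MALME-3M and 196 ± 9.14 in untreated MALME-3M (SD, n = 3). It was followed in untreated MALME-3M by TIMP3 at 171 ± 1.38, TIMP1 at 84.8 ± 0.976 and TIMP2 at 58.6 ± 2.403 CPM per kilobase, and the libraries of neighbours in that order did not overlap. In untreated SK-MEL-5, TIMP3 at 50.2 ± 1.09 and TIMP2 at 50.2 ± 1.71 CPM per kilobase overlapped in their libraries. They were followed there by ADAM9 at 34.8 ± 0.654, MMP14 at 23.9 ± 1.39, TIMP1 at 23.5 ± 1.53 and MMP17 at 19.9 ± 0.662 CPM per kilobase, of which MMP14 and TIMP1 overlapped. The classical sheddases ADAM10 and ADAM17 stood at 10.9 ± 0.498 and 9.01 ± 0.397 CPM per kilobase in untreated SK-MEL-5. These lengths join all annotated exons of a gene, and the order of neighbours depends on them. Transcript-level TPM in untreated SK-MEL-5 averaged 48.7 for TIMP2-201, 33.5 for ADAM9-209 and 29.7 for TIMP3-201. In untreated MALME-3M TPM averaged 93.4 for TIMP3-201, 84.6 for TIMP1-201 and 22.1 for TIMP1-203.

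**Figure D1:**
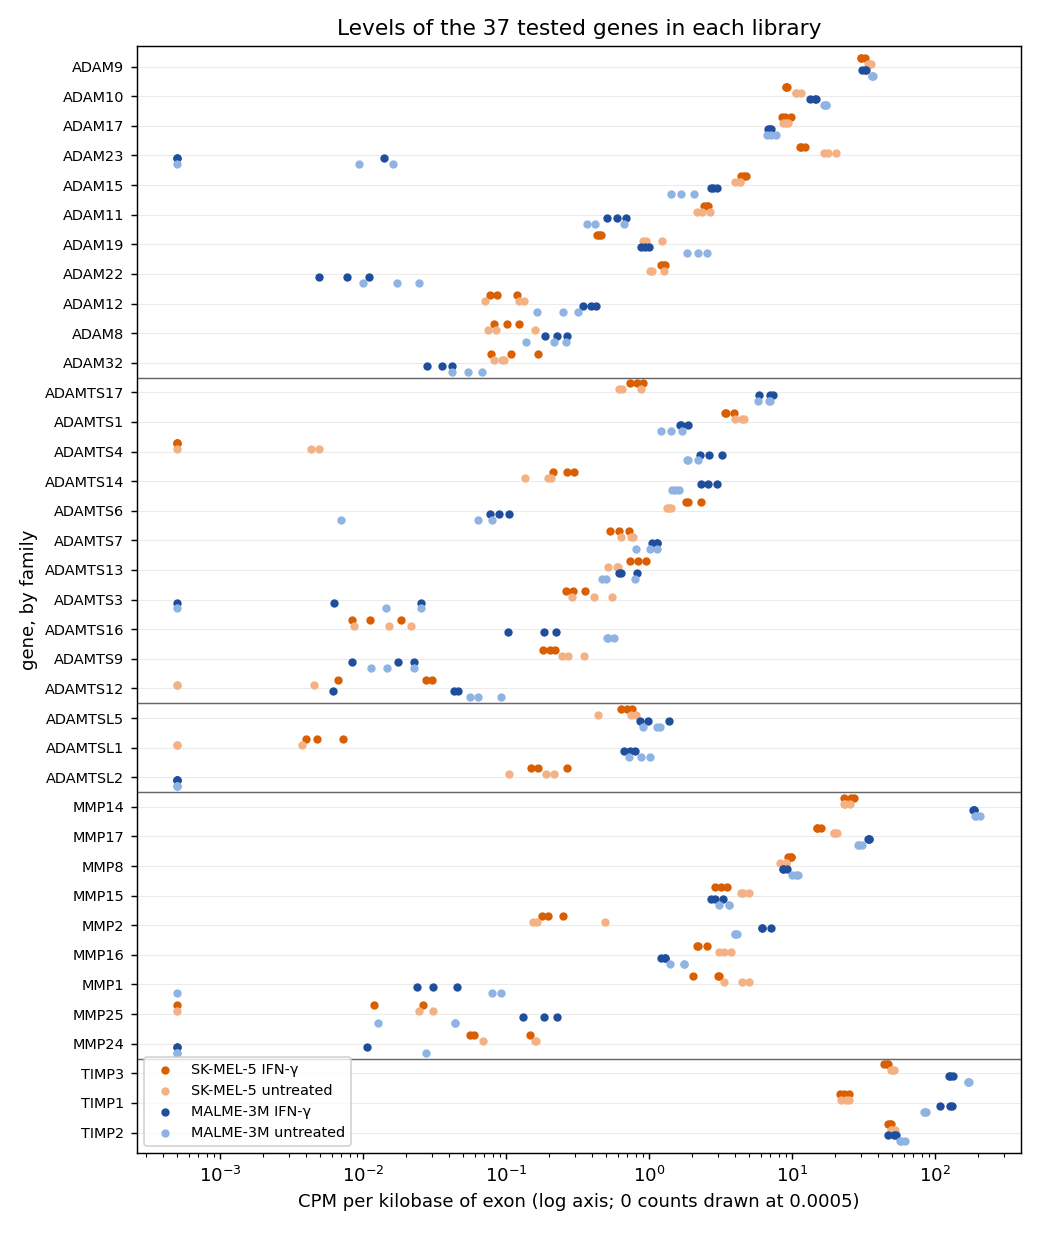
Level of each of the 37 tested genes in each library, as CPM per kilobase of exon on a log axis, grouped by family; each point is 1 library and colours mark the 4 groups. MMP14, TIMP3, TIMP1, TIMP2, ADAM9 and MMP17 lie at the right end, and the lines stand far apart for ADAM23, ADAM22, ADAMTS4 and MMP1.

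Summed over a family, levels were lower with IFN-γ for ADAM and TIMP genes in both lines and for MMP genes in SK-MEL-5, and higher for ADAMTS genes in MALME-3M. The 67 members together took 0.141% to 0.143% of gene counts in IFN-γ-treated SK-MEL-5 libraries, against 0.157% to 0.16% in untreated SK-MEL-5 ones. In MALME-3M they took 0.281% to 0.284% with IFN-γ, against 0.313% to 0.315% untreated. ADAM genes summed to 583 to 604 CPM in IFN-γ-treated SK-MEL-5 and 675 to 721 CPM in untreated SK-MEL-5, and to 540.4 to 569 CPM in IFN-γ-treated MALME-3M and 633 to 645 CPM in untreated MALME-3M. TIMP genes summed to 497 to 522 CPM in IFN-γ-treated SK-MEL-5 and 535 to 564 CPM in untreated SK-MEL-5, and to 1032 to 1103 CPM in IFN-γ-treated MALME-3M and 1234 to 1259 CPM in untreated MALME-3M. MMP genes summed to 240.0 to 265 CPM in IFN-γ-treated SK-MEL-5 and 287 to 289 CPM in untreated SK-MEL-5, and ADAMTS genes to 115 to 134 CPM in IFN-γ-treated MALME-3M and 103 to 114 CPM in untreated MALME-3M. The groups did not overlap in any of these sums. They overlapped for MMP genes in MALME-3M, with 1045 to 1068 CPM in IFN-γ-treated MALME-3M and 1057 to 1123 CPM in untreated MALME-3M, for ADAMTS genes in SK-MEL-5, with 61.3 to 72.1 CPM in IFN-γ-treated SK-MEL-5 and 61.4 to 67.0 CPM in untreated SK-MEL-5, and for ADAMTS-like genes in both lines. The sums are a description with no test. In a bulk library, fewer cells of a type and less RNA per cell cannot be told apart.

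With IFN-γ, 9 of the 37 tested members changed in SK-MEL-5, 1 higher and 8 lower, which is 24.3% against 13% of all 15810 genes tested (adjusted p below 0.05, edgeR quasi-likelihood test, p-values adjusted by Benjamini and Hochberg's method over every gene tested). In MALME-3M 15 changed, 7 higher and 8 lower, which is 40.5% against 18.3% of all genes. Among genes averaging 10 CPM or more the shares were 41.2% of 17 members against 18.5% of 9306 genes in SK-MEL-5, and 64.7% against 25% in MALME-3M. The median log2 fold change over the tested members was -0.15 in SK-MEL-5 and -0.04 in MALME-3M, against -0.03 and 0.00 over all genes, and 1 member in SK-MEL-5 and 3 in MALME-3M changed by more than 2-fold. ADAM9, ADAM10, ADAM19, MMP16 and TIMP3 fell in both lines, none rose in both, and MMP17 fell in SK-MEL-5 and rose in MALME-3M. In all, 18 members changed in at least 1 line and 19 in neither.

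**Figure D2:**
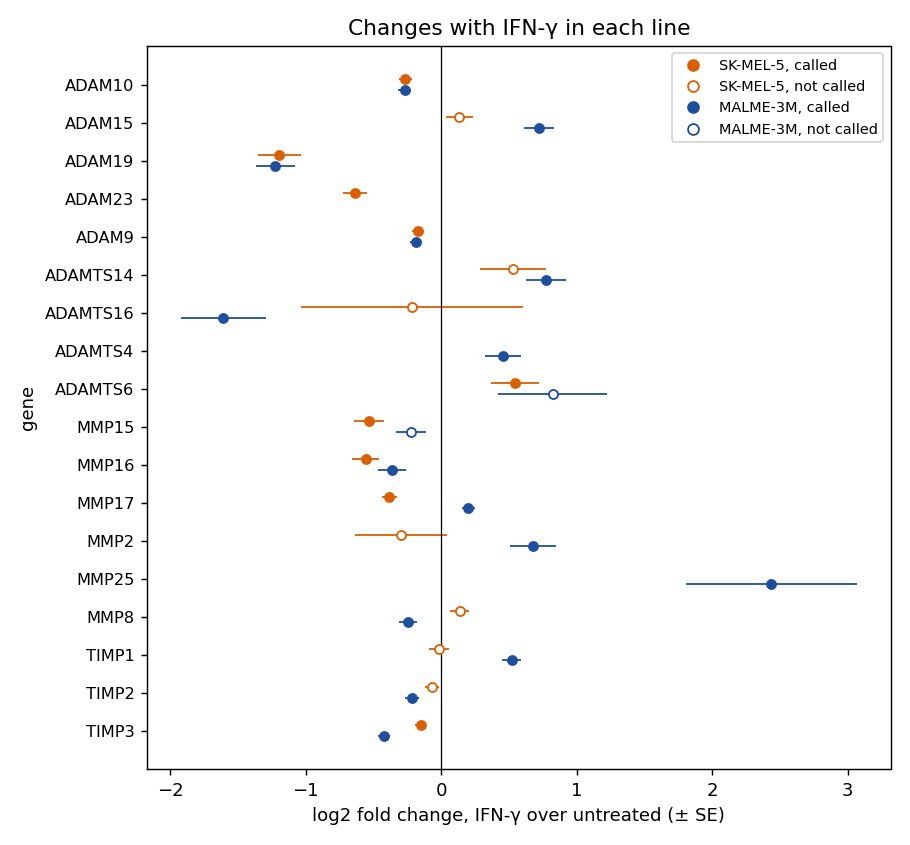
Log2 fold change with IFN-γ over untreated, with its standard error, of the 18 genes called in at least 1 line; filled points are called at adjusted p below 0.05 and open points are not. Values where a group had 3 or fewer counts are left out. ADAM19 has the largest decrease common to both lines, and MMP17 lies left of 0 in SK-MEL-5 and right of 0 in MALME-3M.

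Among the tested ADAM genes, ADAM19 showed the largest decrease in both lines, and ADAM9 and ADAM10 fell by less. ADAM19, a sheddase known to process neuregulin (chr5:157395534-157575775, minus strand, GRCh38, GENCODE 29), had 3.42, 3.55 and 3.32 CPM in IFN-γ-treated SK-MEL-5, against 9.47, 6.98 and 7.29 CPM in untreated SK-MEL-5. In MALME-3M it had 7.68, 7.16 and 6.71 CPM with IFN-γ and 19.4, 16.9 and 14.04 CPM untreated. The treated libraries lay below the untreated ones in both lines, with log2 fold changes of -1.19 ± 0.16 in SK-MEL-5 and -1.22 ± 0.14 in MALME-3M (SE; adjusted p = 2.99e-05 and 4.32e-06). ADAM10, the main sheddase of Notch receptors and N-cadherin, had 146, 146 and 148 CPM in IFN-γ-treated SK-MEL-5, against 171, 186 and 173 CPM in untreated SK-MEL-5. In MALME-3M it had 234, 237 and 216 CPM with IFN-γ and 271, 279.5 and 278 CPM untreated, again with no overlap. Its log2 fold changes were -0.26 ± 0.05 in SK-MEL-5 and -0.27 ± 0.05 in MALME-3M (adjusted p = 8.79e-04 and 4.86e-04), and in SK-MEL-5 the call was lost with transcript-level estimated counts (adjusted p = 0.219; range over all alternatives 2.43e-06 to 0.219).

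ADAM9, a broadly expressed sheddase, had 209, 224 and 208 CPM in IFN-γ-treated SK-MEL-5, against 244, 243 and 236 CPM in untreated SK-MEL-5, and 225, 223 and 212 CPM in IFN-γ-treated MALME-3M, against 253, 248 and 251 CPM in untreated MALME-3M. The groups did not overlap, and the log2 fold changes were -0.17 ± 0.04 in SK-MEL-5 and -0.19 ± 0.04 in MALME-3M (adjusted p = 0.0147 and 0.00571). The SK-MEL-5 call was lost under 4 of the 20 other settings, with adjusted p from 0.00174 to 0.0854 over them. ADAM17, the main sheddase of TNF and of ligands of the EGF receptor, had 105, 95.8 and 91.6 CPM in IFN-γ-treated SK-MEL-5, against 92.4, 97.2 and 101 CPM in untreated SK-MEL-5. In MALME-3M it had 72.8, 74.6 and 76.8 CPM with IFN-γ and 70.9, 82.1 and 76.7 CPM untreated. The groups overlapped in both lines, with log2 fold changes of 0.01 ± 0.06 in SK-MEL-5 and -0.03 ± 0.06 in MALME-3M that did not pass the test (adjusted p = 0.964 and 0.784). Overlaps with IAH1 and AC073195.1 added up to 13.6% of the exon bases of ADAM17. Reads of overlapping genes cannot be told apart where they overlap, since the strand setting of the counting is not known.

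ADAM15, a disintegrin-bearing membrane protease (chr1:155050566-155062775, plus strand), had 18.2, 17.7 and 19.6 CPM in IFN-γ-treated MALME-3M, against 13.4, 9.33 and 11.02 CPM in untreated MALME-3M, and rose by 0.72 ± 0.11 on the log2 scale (adjusted p = 8.91e-05). In SK-MEL-5 it had 31.3, 30.01 and 28.9 CPM with IFN-γ and 25.99, 28.2 and 28.1 CPM untreated, a log2 fold change of 0.13 ± 0.10 that did not pass the test (adjusted p = 0.475), although the treated libraries lay above the untreated ones. ADAM23, which has no working protease site and binds the neuronal protein LGI1, was nearly restricted to SK-MEL-5. It had 78.4, 73.04 and 73.5 CPM in IFN-γ-treated SK-MEL-5, against 106, 129 and 114 CPM in untreated SK-MEL-5, and fell with no overlap (log2 fold change -0.63 ± 0.09, adjusted p = 4.07e-05). In MALME-3M it had 2 counts over the 3 treated libraries and 3 over the untreated ones, so no fold is given. ADAM8, ADAM11, ADAM12, ADAM22 and ADAM32 did not pass the test in either line.

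Of the 11 tested ADAMTS genes, ADAMTS4 and ADAMTS14 rose and ADAMTS16 fell in MALME-3M, and ADAMTS6 rose in SK-MEL-5. ADAMTS14, which trims the amino end of procollagens, had 13.6, 15.6 and 12.03 CPM in IFN-γ-treated MALME-3M, against 8.53, 7.95 and 7.64 CPM in untreated MALME-3M, and the groups did not overlap (log2 fold change 0.77 ± 0.15, adjusted p = 9.14e-04). In SK-MEL-5 it averaged 1.36 ± 0.221 CPM with IFN-γ and 0.938 ± 0.1999 CPM untreated (SD, n = 3 each), and its log2 fold change of 0.53 ± 0.24 did not pass the test (adjusted p = 0.181). At transcript level ADAMTS14-201 had 0 estimated counts in treated and in untreated MALME-3M, so transcript-level estimated counts gave no value for ADAMTS14. Its gene counts in MALME-3M were 828 with IFN-γ and 421 untreated. ADAMTS4, an aggrecan-cutting protease, had 26.8, 23.4 and 33.1 CPM in IFN-γ-treated MALME-3M, against 19.3, 18.8 and 22.8 CPM in untreated MALME-3M. The treated libraries all lay higher (log2 fold change 0.45 ± 0.13, adjusted p = 0.0261). That call was lost under 5 of the 20 other settings (adjusted p 0.00502 to 0.714 over them), and without replicate 3 of IFN-γ-treated MALME-3M the log2 fold change was 0.28. In SK-MEL-5 the gene had 0 counts with IFN-γ and 2 untreated.

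ADAMTS16, a secreted protease, was lower in every treated MALME-3M library, with 0.6003, 1.08 and 1.297 CPM in IFN-γ-treated MALME-3M, against 2.94, 3.31 and 3.02 CPM in untreated MALME-3M (log2 fold change -1.61 ± 0.31, adjusted p = 0.00111). This was the largest decrease among the tested members in MALME-3M, and its call was lost with transcript-level estimated counts, where the log2 fold change was -1.59 (adjusted p = 0.308; range over all alternatives 3.44e-04 to 0.308). SK-MEL-5 averaged 0.0738 ± 0.0303 CPM with IFN-γ and 0.0889 ± 0.0382 CPM untreated, close to the floor of 3 counts. ADAMTS6, another secreted protease, had 19.6, 15.5 and 16.1 CPM in IFN-γ-treated SK-MEL-5, against 11.7, 11.3 and 12.1 CPM in untreated SK-MEL-5, with no overlap. Its rise of 0.55 ± 0.18 on the log2 scale passed the test (adjusted p = 0.0488) and was lost under 9 of the 20 other settings (adjusted p 0.00382 to 0.994 over them). ADAMTS1, a versican-cutting protease, averaged 25.2 ± 2.098 CPM in IFN-γ-treated SK-MEL-5 and 30.5 ± 2.08 CPM in untreated SK-MEL-5, and 12.2 ± 0.904 CPM in IFN-γ-treated MALME-3M and 10.2 ± 1.75 CPM in untreated MALME-3M, and passed the test in neither line (adjusted p = 0.11 and 0.142). None of the 3 tested ADAMTS-like genes changed in either line by the edgeR test, and none had an unadjusted p below 0.05.

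Of the 9 tested MMP genes, MMP15, MMP16 and MMP17, all anchored to the membrane, fell in SK-MEL-5. In MALME-3M MMP2, MMP17 and MMP25 rose and MMP8 and MMP16 fell. MMP17 (chr12:131828393-131851783, plus strand), which is held by a lipid anchor, had 59.95, 63.7 and 59.8 CPM in IFN-γ-treated SK-MEL-5, against 82.7, 78.8 and 77.7 CPM in untreated SK-MEL-5. In MALME-3M it had 137, 134 and 137 CPM with IFN-γ and 115, 123 and 117 CPM untreated. The groups were apart in both lines and in opposite directions, with log2 fold changes of -0.38 ± 0.05 in SK-MEL-5 and 0.20 ± 0.05 in MALME-3M (adjusted p = 3.19e-05 and 0.00828). MMP16 had 26.2, 30.7 and 26.5 CPM in IFN-γ-treated SK-MEL-5, against 37.05, 45.3 and 40.1 CPM in untreated SK-MEL-5, and 14.7, 15.5 and 15.7 CPM in IFN-γ-treated MALME-3M, against 16.8, 21.02 and 21.3 CPM in untreated MALME-3M. Treated libraries lay below untreated ones in both lines, and the log2 fold changes were -0.56 ± 0.10 in SK-MEL-5 and -0.36 ± 0.10 in MALME-3M (adjusted p = 6.61e-04 and 0.0207). In MALME-3M the call was lost or the sign turned under 5 of the 20 other settings (adjusted p 0.00436 to 0.896 over them), and in SK-MEL-5 it was lost with transcript-level estimated counts, at -0.99 (adjusted p = 0.458; range over all alternatives 1.52e-07 to 0.458).

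MMP15 had 12.8, 15.5 and 13.99 CPM in IFN-γ-treated SK-MEL-5, against 21.9, 19.2 and 20.01 CPM in untreated SK-MEL-5, and fell by 0.53 on the log2 scale (SE 0.11, adjusted p = 0.00249), a call lost with transcript-level estimated counts (adjusted p = 0.215; range over all alternatives 2.41e-04 to 0.215). In MALME-3M the groups overlapped, with 14.5, 11.9 and 12.8 CPM in treated libraries and 13.6, 15.96 and 15.9 CPM in untreated ones. MMP2, the type IV collagenase activated by MMP14, had 34.8, 30.03 and 30.2 CPM in IFN-γ-treated MALME-3M, against 19.6, 20.2 and 19.6 CPM in untreated MALME-3M. It rose with no overlap (log2 fold change 0.68 ± 0.17, adjusted p = 0.0088), a call lost under 2 of the 20 other settings, DESeq2 among them (adjusted p 7.59e-07 to 0.459 over them). In SK-MEL-5 it had 0.879, 0.968 and 1.24 CPM with IFN-γ and 2.42, 0.756 and 0.8104 CPM untreated, where 1 of the 3 untreated libraries stood above all others. MMP8, a collagenase best known from neutrophils, had 29.7, 29.7 and 31.4 CPM in IFN-γ-treated MALME-3M, against 36.2, 34.2 and 37.5 CPM in untreated MALME-3M (log2 fold change -0.25 ± 0.07, adjusted p = 0.0168). This call was lost under 4 of the 20 other settings (adjusted p 0.00798 to 0.131 over them), and in SK-MEL-5 MMP8 had 33.7, 31.9 and 33.4 CPM with IFN-γ and 31.3, 30.8 and 28.1 CPM untreated, which did not pass the test (adjusted p = 0.241).

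MMP14 did not pass the test in either line, at 102, 115 and 120.3 CPM in IFN-γ-treated SK-MEL-5, against 102, 104 and 114 CPM in untreated SK-MEL-5, and 837, 835 and 816 CPM in IFN-γ-treated MALME-3M, against 921, 857 and 845 CPM in untreated MALME-3M. Its log2 fold changes were 0.07 ± 0.06 in SK-MEL-5 and -0.08 ± 0.06 in MALME-3M (adjusted p = 0.501 and 0.417), and only the SK-MEL-5 groups overlapped. MMP1, the interstitial collagenase, had 4.01, 5.97 and 6.05 CPM in IFN-γ-treated SK-MEL-5, against 9.72, 8.76 and 6.58 CPM in untreated SK-MEL-5, with no overlap and a log2 fold change of -0.65 ± 0.23 that did not pass (adjusted p = 0.0683). MMP25 had 0.5402, 0.935 and 0.7602 CPM in IFN-γ-treated MALME-3M, against 0.1802, 0.181 and 0.0520 CPM in untreated MALME-3M, the largest increase among members that passed the test in either line (log2 fold change 2.43 ± 0.63, adjusted p = 0.0104). The call was lost under 2 of the 17 other settings (adjusted p 0.00783 to 0.0677 over them). The antisense gene MMP25-AS1 overlaps 35.2% of the exon bases of MMP25 and rose in both lines, to 12.3 ± 0.838 CPM in IFN-γ-treated SK-MEL-5, against 1.19 ± 0.189 CPM in untreated SK-MEL-5, and to 32.5 ± 4.46 CPM in IFN-γ-treated MALME-3M, against 2.92 ± 0.184 CPM in untreated MALME-3M (log2 fold changes 3.38 ± 0.16 in SK-MEL-5 and 3.48 ± 0.14 in MALME-3M, adjusted p = 7.58e-12 and 4.02e-13). With the strand setting unknown, reads of MMP25 and its antisense gene cannot be told apart where they overlap. In SK-MEL-5 MMP25 had 3 counts with IFN-γ and 4 untreated.

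The inhibitors moved in different directions in MALME-3M, where TIMP1 rose and TIMP2 and TIMP3 fell. TIMP1 (chrX:47582313-47586789, plus strand), a secreted inhibitor of most MMPs, had 200.1, 166 and 196 CPM in IFN-γ-treated MALME-3M, against 132, 129 and 131 CPM in untreated MALME-3M, and rose with no overlap (log2 fold change 0.52 ± 0.07, adjusted p = 2.05e-05). In SK-MEL-5 it had 33.4, 35.6 and 38.2 CPM with IFN-γ and 38.3, 36.5 and 33.6 CPM untreated, which overlapped (log2 fold change -0.02 ± 0.07, adjusted p = 0.938). TIMP3 (chr22:32801701-32863043, plus strand), which binds the matrix and also inhibits ADAM10, ADAM17 and ADAMTS4, had 611, 569.5 and 578 CPM in IFN-γ-treated MALME-3M, against 795, 785 and 783 CPM in untreated MALME-3M. Its SK-MEL-5 values were 200.3, 210.3 and 214 CPM with IFN-γ and 232, 236 and 226 CPM untreated. Treated libraries lay below untreated ones in both lines, by log2 fold changes of -0.42 ± 0.04 in MALME-3M and -0.15 ± 0.04 in SK-MEL-5 (adjusted p = 5.84e-07 and 0.0237), and the SK-MEL-5 call was lost under 6 of the 20 other settings (adjusted p 0.00633 to 0.116 over them). TIMP2, the partner of MMP14 in activating pro-MMP2, had 291, 297 and 263 CPM in IFN-γ-treated MALME-3M, against 324, 346 and 320.5 CPM in untreated MALME-3M (log2 fold change -0.22 ± 0.05, adjusted p = 0.00488). In SK-MEL-5 it had 264, 274 and 269.8 CPM with IFN-γ and 293, 279 and 275 CPM untreated and did not pass (adjusted p = 0.44). Overlaps with AC022966.1 and CEP295NL added up to 10% of the exon bases of TIMP2. CEP295NL averaged 6.56 ± 0.336 CPM in IFN-γ-treated MALME-3M and 4.44 ± 1.101 CPM in untreated MALME-3M.

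Whether the lines differed in their response was tested as the MALME-3M change minus the SK-MEL-5 change. It passed for 5 of the 37 members, 3 with the more positive change in MALME-3M and 2 with the more negative one, which is 13.5% against 4.46% of all genes. The difference was 0.58 ± 0.07 on the log2 scale for MMP17 (adjusted p = 4.29e-05), 0.54 ± 0.10 for TIMP1 (adjusted p = 0.00337) and 0.59 ± 0.15 for ADAM15 (adjusted p = 0.0283). It was -0.38 ± 0.10 for MMP8 (adjusted p = 0.0299) and -0.27 ± 0.06 for TIMP3 (adjusted p = 0.0122). For ADAM15 it was lost under 9 of the 19 other settings (adjusted p 0.00355 to 0.196 over them), for MMP8 under 7 of the 19 other settings (adjusted p 0.0158 to 0.34), and for TIMP1 with transcript-level estimated counts (adjusted p = 0.0748; range over all alternatives 1.11e-06 to 0.0748). For ADAM19, which fell in both lines, the difference was -0.03 ± 0.22 and did not pass (adjusted p = 0.982).

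**Figure D3:**
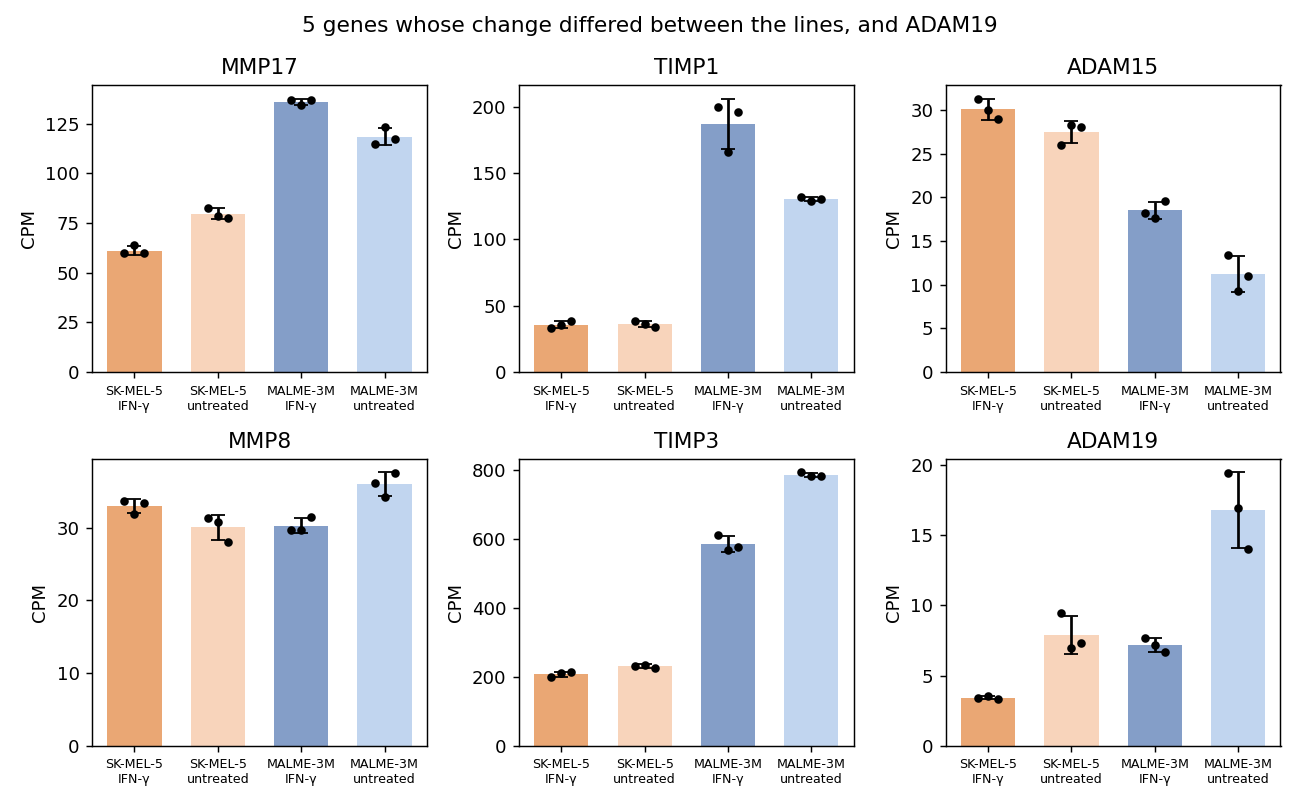
CPM of MMP17, TIMP1, ADAM15, MMP8 and TIMP3, whose change differed between the lines, and of ADAM19; bars are means, error bars SD (n = 3), and points single libraries. MMP17 is lower with IFN-γ in SK-MEL-5 and higher in MALME-3M, and ADAM19 is lower with IFN-γ in both.

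The start regions were read to show what lies at the RefSeq start of the members for which a promoter was found. A RefSeq promoter (GRCh38.p14, 250 bases before to 50 after the start) was found for 40 of the 67 members. None was found for ADAM9, ADAMTS4, ADAMTS16, MMP2, MMP16, MMP17, MMP25 and TIMP2, which changed with IFN-γ. The 40 included MMP10, MMP20 and TIMP4, which had no count. The interferon-γ-activated site TTCNNNGAA, searched on both strands, was in 0 of the 40, against 7.88% of 27305 promoters. The paired half-sites of an interferon-stimulated response element were in 1 of the 40 (ADAMTSL1), against 3.65%, and the AP-1 site TGANTCA in 4 of the 40 (ADAMTS12, MMP7, MMP10 and MMP20), against 7.76%. The GC box GGGCGG, added after the data were seen and searched in the 250 bases before the start, was in 28 of the 40 (70%), against 42.3% of all promoters. No match says only that these letters are not in the window. Many of the 40 windows hold GENCODE 29 exon bases before the RefSeq start, so the shares are not of upstream sequence alone. For ADAM10, ADAM15, ADAMTS13, ADAMTSL1, ADAMTSL2, ADAMTSL5 and TIMP4 all 250 bases are exon bases. The ADAMTSL1 window (chr9:18473903-18474152) lies inside the annotated gene (chr9:17906563-18910950). The 250 upstream bases are shown for 3 members that changed and whose window holds no GENCODE 29 exon base: ADAM19, which fell in both lines (chr5:157575776-157576025, minus strand, 76.4% G and C), ADAM23, which fell in SK-MEL-5 (chr2:206443282-206443531, plus strand, 73.6%), and ADAMTS14, which rose in MALME-3M (chr10:70672256-70672505, plus strand, 80.4%). Each is written along its own gene's strand. Capitals mark GC boxes on either strand, of which ADAM19 had 0, ADAM23 had 2 and ADAMTS14 had 4, where 2 neighbours share 1 base. The 3 windows held no match to the other searched motifs. ADAMTS6, which rose in SK-MEL-5, also had a window without an exon base and is not shown. Its window had 52.4% G and C and 0 GC boxes.
ADAM19: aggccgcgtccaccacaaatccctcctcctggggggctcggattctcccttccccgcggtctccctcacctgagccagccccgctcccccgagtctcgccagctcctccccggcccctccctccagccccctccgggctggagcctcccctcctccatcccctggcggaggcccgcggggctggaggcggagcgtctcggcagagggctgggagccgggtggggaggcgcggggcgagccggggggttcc
ADAM23: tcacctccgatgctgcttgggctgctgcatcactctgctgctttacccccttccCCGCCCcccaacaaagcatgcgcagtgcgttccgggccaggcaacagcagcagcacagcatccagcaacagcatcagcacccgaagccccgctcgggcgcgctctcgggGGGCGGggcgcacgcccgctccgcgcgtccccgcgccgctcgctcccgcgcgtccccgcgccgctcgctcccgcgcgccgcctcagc
ADAMTS14: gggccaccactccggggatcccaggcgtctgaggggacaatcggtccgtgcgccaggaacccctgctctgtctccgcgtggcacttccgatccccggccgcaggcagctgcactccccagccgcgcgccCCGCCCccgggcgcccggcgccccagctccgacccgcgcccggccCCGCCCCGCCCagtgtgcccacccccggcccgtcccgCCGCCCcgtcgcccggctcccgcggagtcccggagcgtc

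More members differed between the untreated lines than changed with IFN-γ. Relative to untreated SK-MEL-5, untreated MALME-3M had 19 of the 37 higher and 14 lower, which is 89.2% against 71.7% of all genes tested. The median log2 fold change was 0.26 over the members and -0.02 over all genes. With IFN-γ in both lines, 17 were higher and 14 lower in MALME-3M, 83.8% against 71.8% of all genes. All 3 tested TIMP genes were higher in untreated MALME-3M, with log2 fold changes of 1.85 ± 0.07 for TIMP1, 1.77 ± 0.04 for TIMP3 and 0.22 ± 0.05 for TIMP2 (adjusted p = 3.33e-14, 2.84e-17 and 6.37e-04). Of the abundant sheddases, ADAM10 was higher (log2 fold change 0.65 ± 0.05, adjusted p = 5.54e-10) and ADAM17 lower (-0.34 ± 0.06, adjusted p = 8.86e-05) in untreated MALME-3M, while ADAM9 did not pass (0.06 ± 0.04, adjusted p = 0.238). For ADAM17 the sign turned with transcript-level estimated counts, at 0.04 (adjusted p = 0.74; range over all alternatives 3.52e-06 to 0.74).

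MMP14 and its substrate pro-MMP2 were both far higher in MALME-3M. MMP14 had 921, 857 and 845 CPM in untreated MALME-3M, against 102, 104 and 114 CPM in untreated SK-MEL-5 (log2 fold change 3.03 ± 0.06, adjusted p = 1.65e-18). For MMP2 the values were 19.6, 20.2 and 19.6 CPM in untreated MALME-3M, against 2.42, 0.756 and 0.8104 CPM in untreated SK-MEL-5 (log2 fold change 3.98 ± 0.24, adjusted p = 1.52e-11). ADAMTS4 and ADAMTSL1 were nearly restricted to MALME-3M. ADAMTS4 had 1072 counts over the 3 untreated MALME-3M libraries, against 2 over the 3 untreated SK-MEL-5 ones, a 592-fold ratio with a 95% Clopper-Pearson interval of 163 to 4890 for counting error. With IFN-γ in both it had 1688 counts in MALME-3M and 0 in SK-MEL-5, at least 507-fold higher against a floor of 3 counts over the group. ADAMTSL1, a matrix protein without protease activity, had 627 counts over the untreated MALME-3M libraries, against 1 over the untreated SK-MEL-5 ones (692-fold, 124 to 27400), and 597 against 4 with IFN-γ in both. ADAMTS12, a secreted protease, had 36 counts over the untreated MALME-3M libraries, against 1 over the untreated SK-MEL-5 ones (39.8-fold, 6.69 to 1610). With IFN-γ in both it had 20 counts in MALME-3M and 12 in SK-MEL-5, the groups overlapped and the log2 fold change of 0.56 ± 0.67 did not pass the test (adjusted p = 0.462). Its change with IFN-γ in SK-MEL-5, 12 counts against 1, did not pass either (adjusted p = 0.0689).

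ADAMTS17, ADAMTS14 and ADAMTS16 were also higher in untreated MALME-3M. ADAMTS17, a secreted protease of the fibrillin-rich matrix, had 47.3, 56.7 and 57.04 CPM in untreated MALME-3M, against 5.27, 5.03 and 7.24 CPM in untreated SK-MEL-5 (log2 fold change 3.20 ± 0.13, adjusted p = 4.82e-14), and did not pass the test with IFN-γ in either line. ADAMTS14 differed by 3.10 ± 0.20 and ADAMTS16 by 5.06 ± 0.46 on the log2 scale (adjusted p = 4.24e-11 and 8.61e-09), from the values given above. ADAM19 was higher by 1.09 ± 0.14 (adjusted p = 1.33e-06).

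Other members were nearly restricted to SK-MEL-5. ADAM23 had 3 counts over the 3 untreated MALME-3M libraries, against 6819 over the 3 untreated SK-MEL-5 ones, 2060-fold lower (704 to 9980). Its relative ADAM22, which likewise has no working protease site, had 0.3003, 0.1204 and 0.208 CPM in untreated MALME-3M, against 12.8, 15.3 and 12.4 CPM in untreated SK-MEL-5 (log2 fold change -5.97 ± 0.23, adjusted p = 2.21e-14). MMP1 had 0.1802, 0 and 0.156 CPM in untreated MALME-3M, against 9.72, 8.76 and 6.58 CPM in untreated SK-MEL-5, and none of the libraries overlapped (log2 fold change -6.11 ± 0.39, adjusted p = 5.35e-11). Among secreted proteases, ADAMTS6 had 0.0601, 0.542 and 0.676 CPM in untreated MALME-3M, against 11.7, 11.3 and 12.1 CPM in untreated SK-MEL-5 (log2 fold change -4.72 ± 0.28, adjusted p = 1.44e-11). ADAMTS3, another procollagen-trimming enzyme, had 0.1802, 0 and 0.104 CPM in untreated MALME-3M, against 2.92, 3.96 and 2.08 CPM in untreated SK-MEL-5 (log2 fold change -4.88 ± 0.56, adjusted p = 2.55e-07). ADAMTS9, a versican-cutting protease, had 0.1201, 0.241 and 0.156 CPM in untreated MALME-3M, against 2.86, 3.74 and 2.63 CPM in untreated SK-MEL-5 (log2 fold change -4.12 ± 0.39, adjusted p = 1.40e-08). ADAMTSL2 had 0 counts in untreated MALME-3M, against 45 in untreated SK-MEL-5, at least 13.6-fold lower, and MMP24 had 2 there, against 33 in untreated SK-MEL-5 (14.9-fold lower, 3.82 to 129). Overlaps with MMP24-AS1 and AL121753.2 added up to 21.8% of the exon bases of MMP24.

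**Figure D4:**
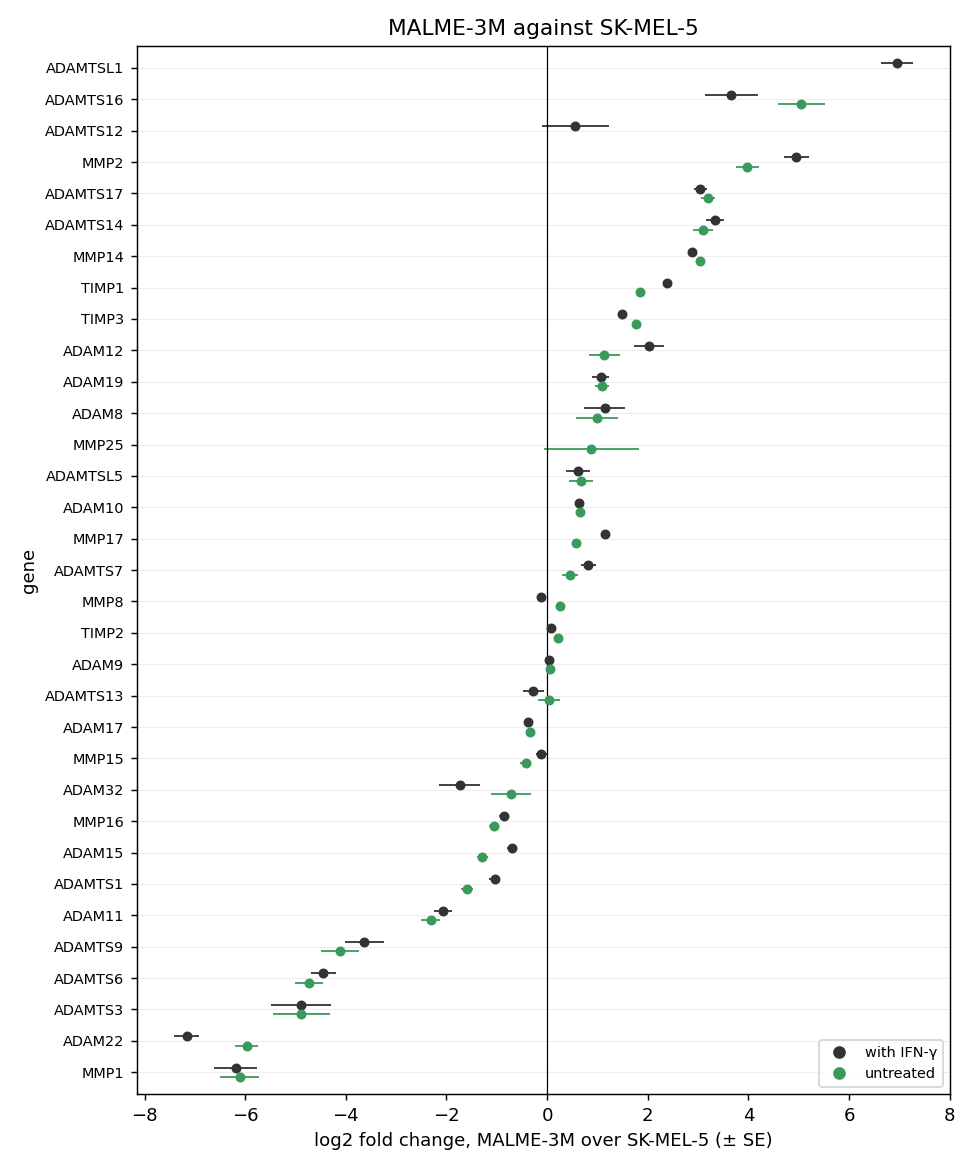
Log2 fold change of MALME-3M over SK-MEL-5, with its standard error, with IFN-γ in both lines and untreated; values where a line had 3 or fewer counts are left out, which removes ADAM23, ADAMTS4, ADAMTSL2 and MMP24. MMP2, ADAMTS17, ADAMTS14 and MMP14 lie near 3 or above in both states, and ADAM22 and MMP1 near -6 or below.

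Of 9 tested partners that carry ADAM10 and ADAM17 to the cell surface, 2 rose and 3 fell in SK-MEL-5, and 3 rose and 2 fell in MALME-3M. That is 55.6% in each line, against 13% of all genes in SK-MEL-5 and 18.3% in MALME-3M, with median log2 fold changes of -0.20 in SK-MEL-5 and 0.13 in MALME-3M. Among all genes averaging 10 CPM or more, 18.5% were called in SK-MEL-5 and 25% in MALME-3M. The shares of this list and those below were not matched for level. RHBDF2, the iRhom that escorts ADAM17, averaged 72.8 ± 3.74 CPM in IFN-γ-treated SK-MEL-5 and 50.4 ± 1.49 CPM in untreated SK-MEL-5, and 139.6 ± 6.83 CPM in IFN-γ-treated MALME-3M and 81.1 ± 2.27 CPM in untreated MALME-3M, and rose in both (log2 fold changes 0.53 ± 0.06 in SK-MEL-5 and 0.79 ± 0.06 in MALME-3M, adjusted p = 1.39e-06 and 3.04e-09). TSPAN14, a tetraspanin that escorts ADAM10, fell in SK-MEL-5 and rose in MALME-3M (log2 fold changes -0.24 ± 0.05 in SK-MEL-5 and 0.24 ± 0.05 in MALME-3M), a difference of 0.48 ± 0.07 (adjusted p = 4.96e-04). TSPAN10 and TSPAN33, of the same tetraspanin group, fell in both lines, TSPAN17 rose in SK-MEL-5 (0.51 ± 0.10), and FRMD8, which stabilises the iRhom complex, rose in MALME-3M (0.34 ± 0.07, adjusted p = 0.00131). Of 5 tested subunits of γ-secretase, which cuts the stubs left by shedding, 0 passed the edgeR test in SK-MEL-5, where 1 had an unadjusted p below 0.05, and PSEN2 alone rose in MALME-3M, 20% of the list against 18.3% of all genes (0.22 ± 0.06, adjusted p = 0.02).

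Inhibitors and cofactors of proteases outside the TIMP family, taken as a list, were led by A2M, the broad protease trap α-2-macroglobulin. It had 836, 803 and 832 CPM in IFN-γ-treated SK-MEL-5, against 112, 115 and 118 CPM in untreated SK-MEL-5. In MALME-3M it had 1440.0, 1449 and 1533 CPM with IFN-γ and 71.5, 70.7 and 68.7 CPM untreated. The groups were far apart, with log2 fold changes of 2.84 ± 0.04 in SK-MEL-5 and 4.39 ± 0.05 in MALME-3M (adjusted p = 3.32e-19 and 1.15e-21), and the MALME-3M change was the larger by 1.55 ± 0.06 (adjusted p = 8.20e-12). Of the 6 tested genes of that list, A2M alone changed in SK-MEL-5, and A2M, SPOCK1 (0.54 ± 0.13) and CST3 (0.22 ± 0.05) rose in MALME-3M, 16.7% and 50% of the list against 13% and 18.3% of all genes, with medians of 0.00 and 0.18 on the log2 scale. RECK, a membrane-anchored MMP inhibitor, passed in neither line (adjusted p = 0.899 and 0.506). Among 7 tested convertases and plasminogen genes, which activate protease precursors, 1 rose and 1 fell in SK-MEL-5, and 3 rose and 1 fell in MALME-3M, 28.6% and 57.1% of the list against 13% and 18.3% of all genes. FURIN, which cuts the propeptide of many ADAMs and membrane-type MMPs, averaged 98.7 ± 0.3097 CPM in IFN-γ-treated SK-MEL-5 and 78.2 ± 4.91 CPM in untreated SK-MEL-5, and 161 ± 1.61 CPM in IFN-γ-treated MALME-3M and 119 ± 7.84 CPM in untreated MALME-3M. It rose in both lines (log2 fold changes 0.34 ± 0.06 in SK-MEL-5 and 0.44 ± 0.06 in MALME-3M, adjusted p = 4.02e-04 and 1.45e-05), and PLAUR, the urokinase receptor, rose in MALME-3M (0.70 ± 0.12, adjusted p = 5.14e-04). PLAT fell in SK-MEL-5 (-0.28 ± 0.06) and SERPINE2 fell in MALME-3M (-0.25 ± 0.05).

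Substrates of the family changed in both directions. Of 27 tested membrane proteins known to be shed, 6 rose and 8 fell in SK-MEL-5, and 9 rose and 8 fell in MALME-3M, with medians of -0.15 and -0.04. Those shares were 51.9% and 63%, against 13% and 18.3% of all genes. The adhesion receptor ICAM1 rose in both lines (log2 fold changes 2.73 ± 0.05 in SK-MEL-5 and 2.52 ± 0.05 in MALME-3M, adjusted p = 4.40e-18 and 1.15e-17). NOTCH1 rose in MALME-3M, with 67.6 ± 2.82 CPM in IFN-γ-treated MALME-3M and 32.3 ± 2.65 CPM in untreated MALME-3M (log2 fold change 1.07 ± 0.09, adjusted p = 3.20e-08), and the growth factor NRG1 fell there (-1.52 ± 0.34, adjusted p = 0.00332). CDH2, N-cadherin, fell in SK-MEL-5, with 1.38 ± 0.0773 CPM in IFN-γ-treated SK-MEL-5 and 3.798 ± 0.515 CPM in untreated SK-MEL-5 (log2 fold change -1.45 ± 0.14, adjusted p = 5.20e-07). CDH1, E-cadherin, also fell there (-3.03 ± 0.70, adjusted p = 0.00644), with 0.342, 0.538 and 0.6505 CPM in IFN-γ-treated SK-MEL-5 and 1.27, 1.33 and 9.52 CPM in untreated SK-MEL-5, where 1 library stood far above the others. Of 18 tested matrix proteins, 2 rose and 5 fell in SK-MEL-5, and 7 rose and 3 fell in MALME-3M, with medians of -0.07 and 0.10. Those shares were 38.9% and 55.6%, against the same 13% and 18.3%. Tenascin TNC rose in both lines (log2 fold changes 1.33 ± 0.05 in SK-MEL-5 and 1.40 ± 0.05 in MALME-3M, adjusted p = 1.43e-13 and 4.96e-14), BCAN, a brain proteoglycan cut by ADAMTS4, fell in MALME-3M (-0.68 ± 0.08), and COL1A2 rose there (1.31 ± 0.30). In SK-MEL-5 NID1 fell (-1.14 ± 0.28) at a low level, with 0.345 ± 0.0871 CPM with IFN-γ and 0.782 ± 0.299 CPM untreated. THBS1 rose there (0.53 ± 0.10), with 27.6 ± 2.1 CPM with IFN-γ and 19.1 ± 1.28 CPM untreated. FN1, fibronectin, averaged 1852 ± 71.1 CPM in IFN-γ-treated MALME-3M and 1172 ± 29.9 CPM in untreated MALME-3M, with a change larger than in SK-MEL-5 by 0.56 ± 0.06 (adjusted p = 4.49e-06).

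Of 13 tested transcription factors known to act on MMP genes, 0 rose and 4 fell in SK-MEL-5 and 2 rose and 0 fell in MALME-3M, with medians of -0.06 and -0.07. The shares were 30.8%, against 13% of all genes, in SK-MEL-5 and 15.4%, against 18.3%, in MALME-3M, a share near that of all genes. JUN averaged 31.6 ± 3.66 CPM in IFN-γ-treated SK-MEL-5 and 42.4 ± 3.59 CPM in untreated SK-MEL-5 and fell (-0.42 ± 0.10, adjusted p = 0.0103), as did TWIST1 (-0.27 ± 0.07) and ETS1 (-0.21 ± 0.06), while JUNB averaged 22.3 ± 0.886 CPM in IFN-γ-treated MALME-3M and 13.7 ± 0.723 CPM in untreated MALME-3M and rose (0.71 ± 0.10, adjusted p = 3.02e-05), with FOS (0.33 ± 0.10). None of the 3 tested procollagen-processing astacin genes changed by the edgeR test in either line, and at an unadjusted p below 0.05 there were 0 in SK-MEL-5 and 1 in MALME-3M.

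Transcript-level values, given as a description, showed which annotated forms carried the signal that was tied to annotated transcripts. All TIMP3 signal of that kind was on TIMP3-201. It had 7940 estimated counts in untreated SK-MEL-5, against 13416 gene counts, and 24692 in untreated MALME-3M, against 41312 gene counts. For TIMP1, TIMP1-201 held 83.8% ± 5.68 of the gene's TPM in IFN-γ-treated MALME-3M and 78.97% ± 0.82 in untreated MALME-3M, and 89.6% ± 9.01 in IFN-γ-treated SK-MEL-5 and 85.7% ± 8.65 in untreated SK-MEL-5 (SD, n = 3 each). MMP8 was mostly on its protein-coding transcript MMP8-201, at 66.6% to 70.6% in the 4 groups. For ADAM19 the annotated nonsense-mediated decay transcript ADAM19-204 held 68.6% ± 16.6 in IFN-γ-treated SK-MEL-5, 61.99% ± 12.9 in untreated SK-MEL-5, 72.1% ± 11.4 in IFN-γ-treated MALME-3M and 65.5% ± 7.75 in untreated MALME-3M, and the groups overlapped in both lines. By estimated counts, ADAM19-204 had 229 and the coding ADAM19-201 had 214 in untreated MALME-3M. In untreated SK-MEL-5 ADAM19-201 had more, 132 against 98.7. With IFN-γ ADAM19-204 had 112 and ADAM19-201 had 74.4 in MALME-3M, and 47.3 and 43.7 in SK-MEL-5. The noncoding MMP14-205 held 50.01% to 66.2% of the MMP14 TPM tied to annotated transcripts. In untreated MALME-3M it had 7017 estimated counts and the coding MMP14-201 had 4572, against 45822 gene counts. The shares therefore do not say what part of all MMP14 RNA is noncoding. These shares rest on transcripts tied to genes, which held 49.9% to 55.2% of a library's estimated counts.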

How the data were processed

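Total RNA of 12 libraries was measured, and the authors deposited 2 tables for each. The gene tables hold raw read counts per symbol, not normalized, per the file headers. The transcript tables deposited by the authors give each transcript's estimated count and its TPM, per the file headers. Per the submitters' processing notes cutadapt, STAR, SAMtools, kallisto and HTSeq and the build hg38 were used; their versions, the annotation and the strand setting are not given here. The 67 members matched the family symbols exactly, and 15830 of the 44700 genes were assembled loci without a symbol.

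The gene counts went into edgeR 4.0.16 under R 4.3.3: filterByExpr with a minimum count of 10 kept 15810 genes, TMM scaled the libraries, and 1 quasi-likelihood fit with a mean per group covered all 12 libraries (8 residual degrees of freedom and a common BCV, the biological coefficient of variation, of 0.0955). The 5 HTSeq summary lines, among them ambiguous reads at 4.19% to 4.54% of gene counts, stayed out. Calls used a Benjamini-Hochberg adjusted p below 0.05. Fold changes are IFN-γ over untreated or MALME-3M over SK-MEL-5. The floor was 3 counts over a group (0.0497 to 0.0572 CPM), and floors and 95% intervals cover counting error only. Replicates differed beyond sampling noise (chi-square 6.35 to 19.3 per gene). Exon lengths and positions came from GENCODE 29 by symbol, promoters from RefSeq.

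Alternatives were DESeq2 1.42.0, DESeq2 size factors and upper-quartile scaling in edgeR, no low-count filter, a robust fit, each line alone, no assembled loci, transcript estimated counts summed to genes and rounded, and each library left out. Values were given per library for members called with IFN-γ or in the difference between lines, the 12 highest and the 8 most different between untreated lines in each direction; other lists name at most 3 called genes per comparison with the largest change. RECK, ADAMTS1, TYRP1, CD68 and the genes that overlap members are also given and were chosen with values known. The members and lists were chosen with earlier results of these data known. The fit was also run on simulated counts with the same spread for every gene, where only genes of higher mean CPM were changed. That run says nothing of calls at low counts.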

Additional observations from a re-analysis of the deposited data

Results flagged for a closer look

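The change with IFN-γ differed between the lines in 5 members by the edgeR test of the difference itself (MALME-3M change minus SK-MEL-5 change, log2). The difference was 0.59 for ADAM15, which rose in MALME-3M. It was 0.58 for MMP17, which rose in MALME-3M and fell in SK-MEL-5, with every treated library above every untreated one in MALME-3M and below in SK-MEL-5. It was 0.54 for TIMP1, which rose in MALME-3M. It was -0.38 for MMP8, which fell in MALME-3M. It was -0.27 for TIMP3, which fell in both lines. Dose and medium also differ between the lines and cannot be told apart from them.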

How the results depend on the processing

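Of 53 called values of named members, 37 were called under every alternative that gave a value for the gene. Another 15 lost the call, with the sign kept, under at least 1. Some genes had too few counts for a value in some settings, among them ADAMTS14 with transcript estimated counts. The sign turned, without passing the test, for MMP16 with IFN-γ in MALME-3M (0.23, adjusted p = 0.896) and for ADAM17 between the untreated lines (0.038, adjusted p = 0.74), both with transcript estimated counts. MMP16 also lost its call elsewhere and is among the 15, while ADAM17 is not. Of 26 values that were not called, 2 were called somewhere, MMP2 in the difference between lines without a low-count filter (adjusted p = 0.0155) and ADAM9 between the untreated lines without replicate 1 or 3 of treated MALME-3M (adjusted p = 0.0368 and 0.0327). With transcript estimated counts, members higher and lower were 0 and 5 in SK-MEL-5, 4 and 5 in MALME-3M and 1 and 1 in the difference. All genes higher and lower were 396 and 176 in SK-MEL-5, 527 and 415 in MALME-3M, 68 and 69 in the difference, and 3653 and 3758 between the treated lines, with 3743 lower between the untreated lines. That setting used the part of the reads tied to annotated transcripts, 49.86% to 55.15%. Without the low-count filter 5 members were higher in the difference. Leaving out 1 library at a time gave 0 to 2 members higher and 655 to 1148 genes lower in SK-MEL-5. The lowest gene count there came without replicate 2 of untreated cells. In the difference it gave 1 to 2 members lower and 240 to 355 genes higher. The lowest gene count in the difference came without replicate 3 of treated MALME-3M. The causes were not tested. Scaling moved the median of all genes by -0.03 to 0.02. No paired analysis was possible because the labels give no replicate numbers. The replicate numbers used here only follow the order of the libraries in the series and pair none of them.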
